A study of Mus musculus with 6 samples.

Results

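Fibroblast growth factor (FGF) transcripts were examined in the gastrocnemius, the large muscle of the calf, of 3 HrasG12V and 3 wild-type (WT) littermate mice. The set held 10 of the 23997 gene symbols listed per library, namely the ligands *Fgf1*, *Fgf2*, *Fgf6*, *Fgf7* and *Fgf13* and the receptors *Fgfr1*, *Fgfr2*, *Fgfr3*, *Fgfr4* and *Fgfrl1*. Members were found by exact symbol, and all 10 were listed in every library. They had been chosen by gene family with the genotype difference in these same 6 libraries already known, and *Fgf13* and *Fgfr3* are also on a list that the study drew from these libraries. Their genotype differences are therefore given as a description. The mice were 21 days old and untreated, and each gave 1 library. WT mice 2277, 2280 and 2281 carried the strain label Caggs-Cre-/HrasflG12V/+, with an engineered *Hras* allele that was not recombined, although their genotype was also labelled Hras+/+. HrasG12V mice 2276, 2278 and 2279 were labelled Caggs-Cre+/HrasG12V/+. The Caggs promoter drives Cre in nearly all cell types, so the activated allele was not confined to muscle fibers, and it was read from the *Hras* promoter itself. Cre was present only in the HrasG12V group, so its effect and that of the *Hras* change cannot be told apart. The mice were of mixed SWR/J, 129S1/SvImJ and C57BL/6J background. Sex, litter and batch are not in the labels.

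FGFs are ligands of receptor tyrosine kinases. Most are secreted and bind their receptor together with heparan sulfate, a sulfated sugar chain of cell surface and matrix proteoglycans, after which the receptor signals through the adaptors FRS2, GRB2 and SOS to Ras, Raf, MEK and ERK. *Hras* encodes one of the Ras proteins in that chain. In skeletal muscle, FGF signaling is known for keeping satellite cells, the muscle stem cells, in division and for holding back their differentiation. *Fgf13* is an exception within the family. Its product belongs to the FGF homologous factors, which stay inside the cell and bind the tails of voltage-gated sodium channels.

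The sequence before the transcription start is shown for *Fgf13* and *Fgfr3*, whose FPKM did not overlap between genotypes, for *Fgf6*, the ligand best known from muscle, and for *Fgfbp1*, a carrier of secreted FGFs described with the pathway genes below. The letters come from RefSeq on GRCm38.p6, run 5′ to 3′ along the gene's own strand and end at the first start, or before the first annotated exon base where that came earlier. Capitals mark CAGCTG, the E-box letters favored by the muscle factor MyoD. The windows are chrX:59585573-59585822 on the minus strand for *Fgf13*, chr5:33721474-33721673 on the plus strand for *Fgfr3*, chr6:127015292-127015541 on the plus strand for *Fgf6* and chr5:43981800-43982049 on the minus strand for *Fgfbp1*.
Fgf13: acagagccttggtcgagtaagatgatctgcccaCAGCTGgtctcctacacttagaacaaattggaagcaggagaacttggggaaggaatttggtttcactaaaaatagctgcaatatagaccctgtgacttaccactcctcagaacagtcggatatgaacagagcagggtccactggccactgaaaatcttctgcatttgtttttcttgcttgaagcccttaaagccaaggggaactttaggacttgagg
Fgfr3: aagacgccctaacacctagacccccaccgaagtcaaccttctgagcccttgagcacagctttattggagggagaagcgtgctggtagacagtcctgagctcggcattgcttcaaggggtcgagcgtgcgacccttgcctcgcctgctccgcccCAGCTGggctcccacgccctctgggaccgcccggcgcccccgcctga
Fgf6: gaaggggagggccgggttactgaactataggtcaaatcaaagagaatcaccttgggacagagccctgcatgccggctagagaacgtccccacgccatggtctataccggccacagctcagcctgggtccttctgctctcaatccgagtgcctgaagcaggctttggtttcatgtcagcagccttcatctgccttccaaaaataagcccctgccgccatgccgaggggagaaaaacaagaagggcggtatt
Fgfbp1: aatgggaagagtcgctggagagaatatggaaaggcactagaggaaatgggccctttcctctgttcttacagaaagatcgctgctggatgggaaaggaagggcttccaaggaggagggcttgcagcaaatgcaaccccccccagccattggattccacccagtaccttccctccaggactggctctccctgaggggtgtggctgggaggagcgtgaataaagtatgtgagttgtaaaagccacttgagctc
*Fgf13* held 1 CAGCTG beginning 217 bases before the start and *Fgfr3* held 1 beginning 97 bases before it, while the *Fgf6* and *Fgfbp1* windows held none. The printed *Fgfr3* letters leave out the last 50 bases before its RefSeq start, from which the 97 bases are counted. CAGCTG, which reads the same on both strands, was found in 13.1% of the 32536 windows of 250 bases before a RefSeq start. The ETS core CCGGAA, searched on both strands and unable to overlap CAGCTG, was found in 12.1%. It occurred before *Fgfr4* and *Fgfrl1*, so each motif was in 2 of the 12 windows of the 8 members matched in the promoter table (16.7%). The *Fgf13* gene had 4 listed starts. The GC content of their windows ran from 40.4% to 74.8%, and a gene-level FPKM does not say which start was used.

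FPKM are fragments per kilobase of transcript, scaled to the size of the library, so levels can be compared between genes. The receptor *Fgfr1* was the most abundant member in every mouse. Its FPKM was 25.2, 23.8 and 24.2 in WT mice 2277, 2280 and 2281 and 25.9, 20.0 and 29.0 in HrasG12V mice 2276, 2278 and 2279, the order used for all values below. *Fgf13*, *Fgfrl1* and *Fgf1* followed with WT means of 15.4, 11.7 and 10.6 FPKM. *Fgfr4*, *Fgfr3*, *Fgf6*, *Fgf2* and *Fgf7* had WT means of 3.53, 2.39, 1.89, 1.09 and 0.957 FPKM, and *Fgfr2* was lowest at 0.341. In 5 of the 9 pairs of neighbors in this order the first gene was higher in 6 of 6 mice. These were *Fgfr1* over *Fgf13*, *Fgf1* over *Fgfr4*, *Fgfr4* over *Fgfr3*, *Fgf6* over *Fgf2* and *Fgf7* over *Fgfr2*, with mean log2 differences of 0.97 to 1.47. Each had a two-sided exact sign-flip permutation p of 0.0312, the smallest that 6 mice allow, and 0.0563 after Benjamini-Hochberg adjustment over the 9 pairs, so none passed an adjusted limit of 0.05. The order itself was set by the WT mice among the 6 tested, so these p-values are given as a description. *Fgf13* and *Fgfrl1*, *Fgfr3* and *Fgf6*, and *Fgf2* and *Fgf7* did not differ beyond their spread over all 6 mice, the first named being higher in 3, 2 and 3 of 6. The test pooled both genotypes, and *Fgf13* exceeded *Fgfrl1* in 3 of 3 WT mice and in 0 of 3 HrasG12V mice. *Fgfr3* exceeded *Fgf6* in 2 WT mice and in 0 of 3 HrasG12V mice. *Fgfrl1* exceeded *Fgf1* in 5 of 6 mice (exact permutation p = 0.0938). The members were not simply the most abundant FGF genes. *Fgf11*, with a WT mean of 6.90 FPKM, and *Fgf18*, with 1.44, lay outside the set and above several members.

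**Figure D1:**
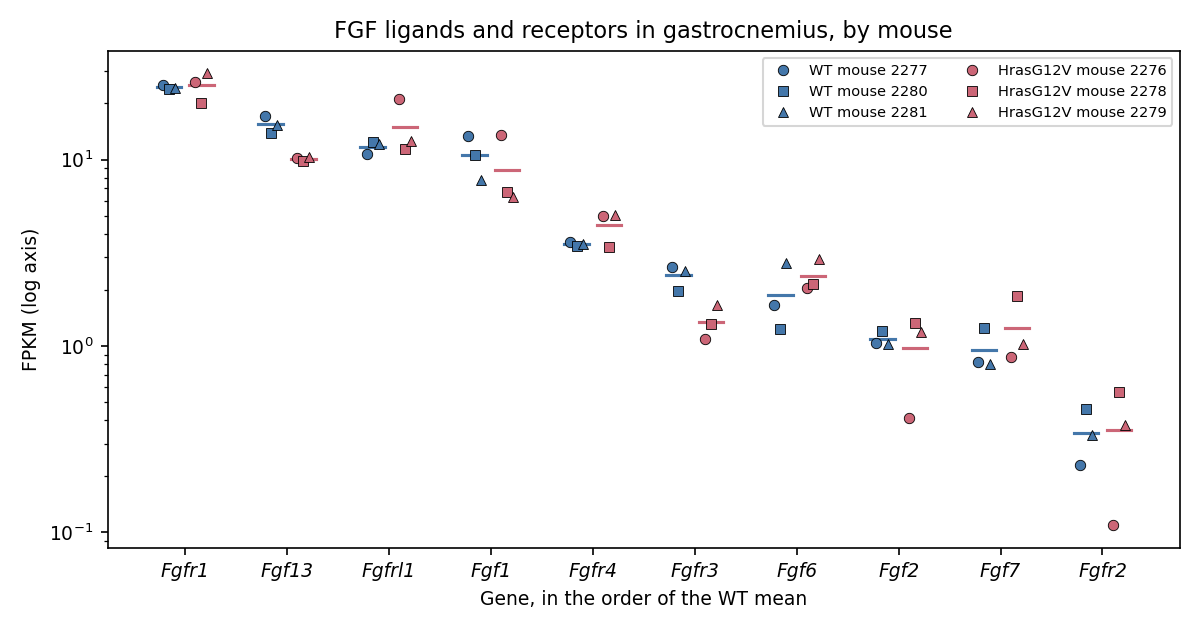
FPKM of the 10 FGF ligands and receptors in each mouse, on a log axis, with WT mice in blue and HrasG12V mice in red. *Fgfr1* lies between 20.0 and 29.0 FPKM in every mouse, *Fgfr2* at 0.569 or below, and only *Fgf13* and *Fgfr3* show no overlap between genotypes.

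Genotypes were compared on log2(FPKM + 0.1) with limma over 13359 genes with a mean of at least 0.5 FPKM. This scale understates the change of low genes. A positive log2 fold change means higher in HrasG12V, and the error given is its standard error. Of the 10 members, 9 passed the filter and *Fgfr2* did not. The unadjusted p was below 0.05 for 2 of the 9, both lower in HrasG12V. Over all genes tested it was below 0.05 for 10.2% in either direction, for 4.99% lower and for 5.18% higher in HrasG12V. After adjustment over all genes 0 of the 9 members had p below 0.05 (limma adjusted p of 0.378 to 0.990), against 0.0599% of all genes, or 8 genes. Without HrasG12V mouse 2276 *Fgf13* had a limma adjusted p of 0.0462, and the other 8 members stayed above 0.05, where 9.66% of all genes passed. Groups did not overlap for the same 2 members and for 18.5% of all genes tested. Since the contrast was known when the members were picked, nothing is read from these counts. The median log2 fold change was 0.017 over the 9 members and -0.030 over all genes.

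Among the secreted ligands no genotype difference over all 6 mice exceeded the spread between mice. *Fgf6*, which is made mainly by cells of the muscle lineage, had 1.66, 1.23 and 2.78 FPKM in WT and 2.04, 2.15 and 2.95 in HrasG12V mice. WT mouse 2281 lay among the HrasG12V values, and the log2 fold change was 0.38 ± 0.32, with 0.12 to 0.68 when each mouse was left out. *Fgf1*, a ligand of all FGF receptors, had 13.3, 10.6 and 7.79 against 13.5, 6.74 and 6.28 FPKM. HrasG12V mouse 2276 was the highest of all and the other HrasG12V mice were below every WT mouse. The log2 fold change was -0.31 ± 0.35. When each mouse was left out it ran from -0.66 ± 0.24 without mouse 2276 to -0.11 without mouse 2279. Without mouse 2276 *Fgf1* joined the members with an unadjusted p below 0.05, in a fit where 29.8% of all genes had such a p. *Fgf2*, a mitogen of satellite cells, had 1.04, 1.20 and 1.02 against 0.409, 1.33 and 1.19 FPKM. Mouse 2276 had less than any other, the other HrasG12V mice lay at the WT level, and the log2 fold change was -0.27 ± 0.44. It turned to 0.20 without mouse 2276. *Fgf7*, which mesenchymal cells make and which acts on epithelia, had 0.818, 1.25 and 0.805 against 0.877, 1.85 and 1.02 FPKM, with a log2 fold change of 0.31 ± 0.35. Its highest value was in HrasG12V mouse 2278. The log2 fold change was 0.012 without that mouse and 0.51 without mouse 2276.

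*Fgf13*, the intracellular sodium channel partner, was lower in each HrasG12V mouse than in any WT mouse. The FPKM was 17.2, 13.9 and 15.3 in WT (15.4 ± 1.67, SD, n = 3) and 10.2, 9.81 and 10.3 in HrasG12V mice (10.1 ± 0.257, SD, n = 3). The HrasG12V values were close to each other, with a coefficient of variation of 2.54% against 10.8% in WT. The mean was 1.53 times as high in WT, and the log2 fold change was -0.60 ± 0.15. It stayed between -0.68 and -0.52 when each mouse was left out. The gene lies on chromosome X of GRCm38.p6 from 59062139 to 59585572.

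*Fgfr3*, a receptor kinase known from growing cartilage, was the other member without overlap. The FPKM was 2.65, 1.98 and 2.54 in WT (2.39 ± 0.358, SD, n = 3) and 1.08, 1.31 and 1.67 in HrasG12V mice (1.35 ± 0.295, SD, n = 3). The lowest WT mouse, 2280, and the highest HrasG12V mouse, 2279, were the closest pair across genotypes. The mean was 1.77 times as high in WT and the log2 fold change was -0.79 ± 0.23, with -0.94 to -0.65 when each mouse was left out. The gene lies on chromosome 5 from 33721724 to 33737068. Tendon marker genes moved the same way. Their summed FPKM was 288 to 593 in WT and 102 to 216 in HrasG12V mice, and 6 of the 7 had a lower log2 value in HrasG12V at an unadjusted limma p below 0.05. Cartilage and bone markers summed to 5.19 to 10.4 against 2.35 to 4.64 FPKM, with *Ibsp* listed at 0 in all 6 mice. *Col2a1* made up most of the WT sums, at 3.32, 8.36 and 4.48 FPKM against 0.836, 3.09 and 1.14. *Acan* also had a lower mean in HrasG12V mice, 0.0906 against 0.420 FPKM in WT, but overlapped between genotypes, as did *Sox9*. *Runx2* and *Bglap* had higher means in HrasG12V mice, also with overlap, *Bglap* at no more than 0.176 FPKM in any mouse. Among WT mice the order was not shared, since mouse 2277 had the lowest tendon sum and the highest *Fgfr3*. The part of these cells in the *Fgfr3* difference was not tested, and in a bulk sample fewer cells of a type and less RNA per cell cannot be told apart.

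The other receptors overlapped between genotypes. *Fgfr4*, a receptor kinase of myogenic cells, had 3.60, 3.46 and 3.52 FPKM in WT and 4.98, 3.38 and 5.01 in HrasG12V mice. The WT mice were nearly equal (coefficient of variation 1.98%), mice 2276 and 2279 were above them and mouse 2278 was not. The log2 fold change was 0.31 ± 0.19, and 0.49 ± 0.14 without mouse 2278, where *Fgfr4* had an unadjusted p below 0.05, as did 9.69% of all genes tested. Satellite cell markers summed to 75.1 to 78.9 FPKM in WT and to 106, 73.2 and 81.2 in HrasG12V mice. *Itga7* and *Sdc4*, which other cells also express, made up most of each sum. In mouse 2278, which had the lowest *Fgfr4*, 5 of the 8 markers were above the WT mean, against 6, 3 and 4 in the WT mice themselves. *Pax7*, the defining satellite cell factor, was at 1.77 FPKM in mouse 2278 against 1.08 to 1.28 in WT. *Cdh15*, *Sdc4* and *Itga7* were below the WT mean in that mouse. The part of these cells in *Fgfr4* was not tested. *Fgfr1*, the main receptor of muscle precursors, had a log2 fold change of 0.017 ± 0.19, with mouse 2278 below and mice 2276 and 2279 above all WT mice, and its sign changed when single mice were left out (-0.099 to 0.17). *Fgfrl1*, a family member that binds FGF but lacks the kinase domain, had 10.7, 12.4 and 12.1 against 21.0, 11.4 and 12.5 FPKM. Its log2 fold change of 0.30 ± 0.26 rested on mouse 2276 and was 0.028 without it. *Fgfr2* had 0.230, 0.459 and 0.335 against 0.109, 0.569 and 0.379 FPKM, and a fit with no filter gave -0.087 ± 0.48.

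**Figure D2:**
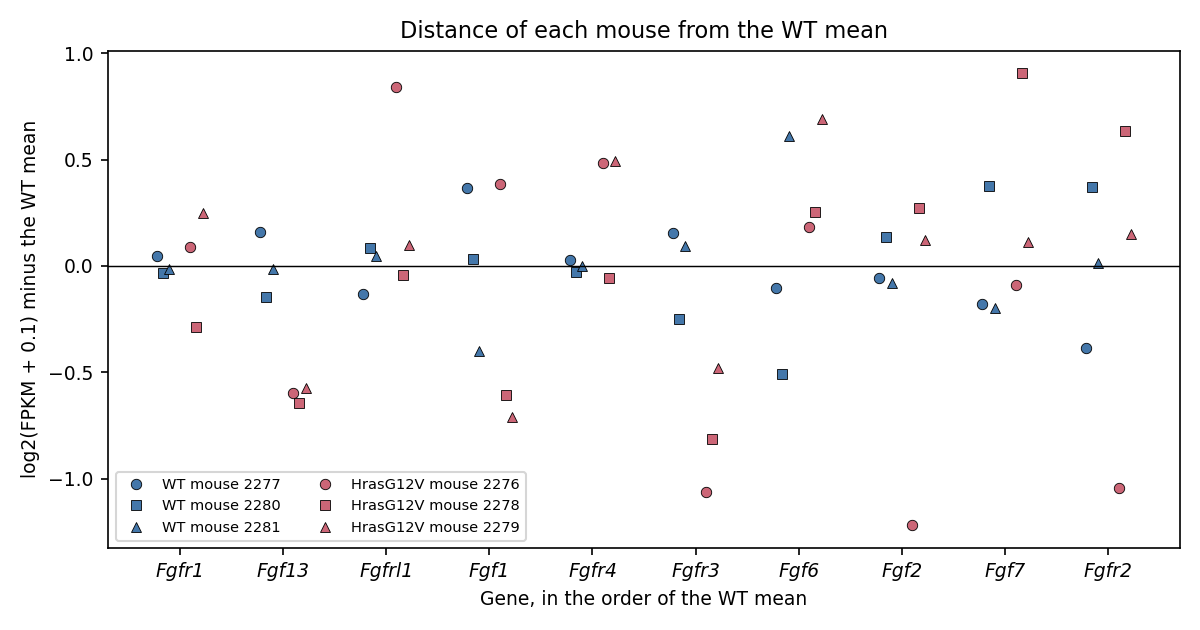
Log2(FPKM + 0.1) of each HrasG12V mouse minus the WT mean, for the 10 members, with 0 as the WT mean. *Fgf13* lies between -0.64 and -0.57 in all 3 mice, while *Fgf2* and *Fgfrl1* depart from WT mainly in mouse 2276.

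Mouse 2276 often stood apart from the other HrasG12V mice. Against the WT mean its log2 value was -1.22 for *Fgf2* and 0.84 for *Fgfrl1*, where the other HrasG12V mice had 0.27 and 0.12 for *Fgf2* and -0.042 and 0.098 for *Fgfrl1*. *Hras* itself was 36.8, 36.0 and 51.8 FPKM in WT and 58.8, 28.9 and 16 in HrasG12V mice, highest in the same mouse, and FPKM sums both alleles. The library of mouse 2276 also had the largest FPKM total, 814013 against 413020 to 547122 in the others, although the libraries had like medians over the genes tested, 6.39 to 6.64 FPKM. Mice 2278 and 2279 differed from the rest in another way. B and T lymphocyte markers summed to 92.1 and 85.1 FPKM there, against 2.20 in mouse 2276 and 1.20 to 1.63 in WT. Without these 2 libraries the HrasG12V group was mouse 2276 alone, and *Fgf13* and *Fgfr3* were at -0.60 and -1.06 of the WT mean on the log2 scale. The skeletal muscle gene *Mylpf*, which encodes a myosin light chain, reached 10760 to 36114 FPKM. In contrast, *Acta1* and *Myh4* were listed at 0 in all 6 mice. Other muscle fiber genes were at 0 in some mice only. *Ckm* was at 0 in all but HrasG12V mouse 2278 (7165 FPKM). *Tnnt3* was at 0 in HrasG12V mouse 2276 alone, and *Myh1* in WT mice 2277 and 2280. A 0 in these values may thus be a failed estimate, and one that differs between mice.

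Shares among the 4 receptor kinases do not depend on how libraries were scaled. *Fgfr1* made up 79.5%, 80.2% and 79.1% of their summed FPKM in WT and 80.8%, 79.2% and 80.4% in HrasG12V mice, so its share spanned less than 2 percentage points over the 6 mice. *Fgfr4* held 11.4%, 11.6% and 11.5% in WT and 15.5%, 13.4% and 13.9% in HrasG12V mice. *Fgfr3* held 8.37%, 6.66% and 8.30% against 3.38%, 5.17% and 4.63%. Neither share overlapped between genotypes, including mouse 2278, whose *Fgfr4* level was not above WT. The ratio of *Fgfr4* to *Fgfr3* was 1.36, 1.75 and 1.39 in WT and 4.59, 2.59 and 3.0 in HrasG12V mice. These shares rest on the contrast by which the members were chosen and on unequal change within the family, which does not say which of these receptors changed.

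**Figure D3:**
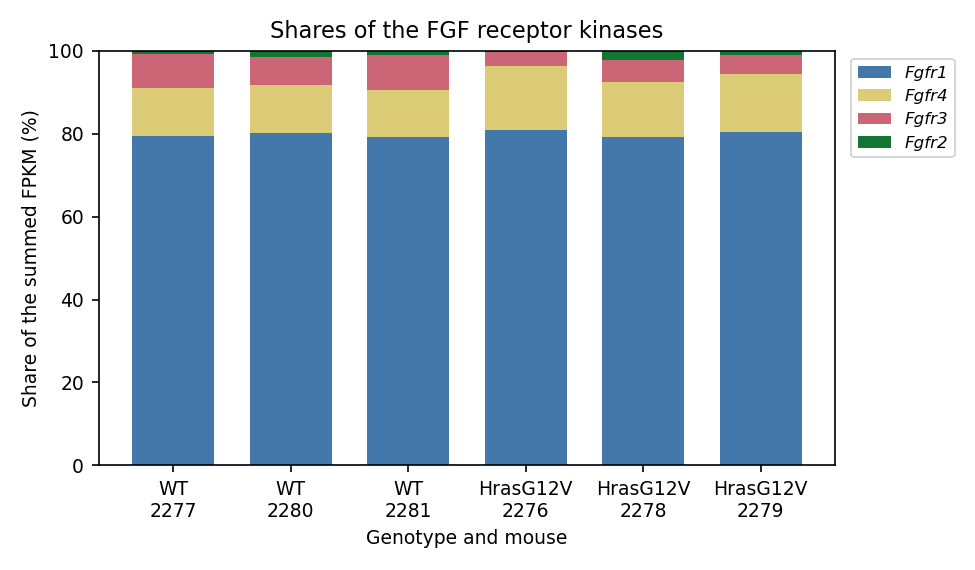
Percent of the summed FPKM of *Fgfr1*, *Fgfr2*, *Fgfr3* and *Fgfr4* held by each receptor kinase in each mouse. *Fgfr1* stays between 79.1% and 80.8%, while *Fgfr4* is at 11.4% to 11.6% in WT and at 13.4% to 15.5% in HrasG12V mice.

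The wider pathway was taken from 6 lists of genes around the receptors, 104 genes in all, of which 103 were found by symbol and 71 passed the filter. An unadjusted limma p below 0.05 was found for 12 of the 71 (16.9%), 6 higher and 6 lower in HrasG12V, and the groups did not overlap for 21 (29.6%). For all genes tested these shares were those given above. After adjustment over all genes 0 of the 71 passed (limma adjusted p of 0.198 to 0.992), but 3 did without HrasG12V mouse 2276, namely *Etv5*, *Hs6st2* and *Myc* (0.0053, 0.0221 and 0.0496), where 9.66% of all genes passed. The median log2 fold change was 0.015. In what follows, p below 0.05 without adjustment is meant where a gene is counted as higher or lower.

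Transcripts that rise when ERK is active, and the inhibitors that ERK induces, had the highest median of the 6 lists, 0.39, and 16 of the 19 tested (84.2%) had a log2 fold change above 0, against 46.6% of all genes tested. When each mouse was left out the number above 0 was 13 to 16 and the median 0.21 (without WT mouse 2277) to 0.48, with 0.26 without HrasG12V mouse 2279. Without both HrasG12V libraries with lymphocyte transcripts 11 of 19 were above 0, with a median of 0.19. Macrophage and neutrophil markers also differed, with sums of 27.2 to 34.1 FPKM in WT and 56.7 to 170 in HrasG12V mice and 4 of 7 counted higher. These 4 were the neutrophil genes *S100a8*, *S100a9* and *Ngp* and the macrophage gene *C1qa*. The macrophage markers *Cd68*, *Csf1r* and *Emr1* overlapped between genotypes. The part of immune cells in the list of ERK targets was not tested. Of the 19, 4 were counted higher and 1 lower. The other 14 were not counted, among them *Dusp6* (0.037 ± 0.15), *Spry2* (0.17 ± 0.13) and *Spry4* (-0.26 ± 0.26). *Dusp6*, *Etv4*, *Fos*, *Ier3* and *Spred2*, all above 0 over the 6 mice, changed sign when single mice were left out. *Etv5*, an ETS factor induced by FGF and ERK, had 8.72, 8.28 and 9.0 FPKM in WT and 33.9, 20.8 and 25.2 in HrasG12V mice. Every HrasG12V mouse had more than 2 times the level of any WT mouse, with a log2 fold change of 1.58 ± 0.21 (limma adjusted p = 0.198). *Ccnd1*, the cell cycle gene for cyclin D1, had a log2 fold change of 1.06 ± 0.35, *Myc*, a growth transcription factor, 0.64 ± 0.23, and *Spry1*, a feedback inhibitor of receptor signaling, 0.52 ± 0.21. *Il17rd*, which encodes the FGF antagonist Sef, differed in direction. It had 2.68, 2.62 and 2.60 FPKM in WT and 1.16, 1.77 and 2.24 in HrasG12V mice, a log2 fold change of -0.63 ± 0.25.

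The adaptors between receptor and Ras had a median of -0.25, with 5 of 16 (31.2%) above 0. When each mouse was left out the number above 0 was 3 to 6 and the median -0.40 (without mouse 2279) to -0.11 (without mouse 2276). *Sos2*, a nucleotide exchange factor that loads Ras with GTP, was counted lower, with 18.2, 16.8 and 20.4 FPKM in WT, 9.11, 11.6 and 15.0 in HrasG12V mice and a log2 fold change of -0.65 ± 0.22. *Cbl*, a ubiquitin ligase of activated receptors, had the lowest log2 fold change of the list, -0.71 ± 0.54, and *Shb*, an SH2 adaptor, the highest, 0.21 ± 0.28. The *Cbl* value rested on mouse 2276, which had 0.761 FPKM against 3.15 to 3.77 in the other 5. *Frs2*, the docking protein of FGF receptors, named after its values were seen, was likewise low in that mouse alone, at 2.81 FPKM against 6.23 to 7.25.

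Among heparan sulfate enzymes, *Hs6st2*, which adds sulfate to the 6-O position of heparan sulfate, had 2.28, 2.78 and 3.48 FPKM in WT and 6.18, 13.1 and 8.20 in HrasG12V mice, with a log2 fold change of 1.60 ± 0.30 (limma adjusted p = 0.288), within error of that of *Etv5*. The other 3 enzymes counted act earlier in making or modifying the chain, and each was lower in HrasG12V. The log2 fold change was -0.56 ± 0.20 for *Ndst1*, an N-deacetylase and N-sulfotransferase, -0.59 ± 0.23 for *Glce*, the epimerase of glucuronic acid, and -0.41 ± 0.15 for *Extl3*, which starts the chain. The list's median was -0.12, with 15 genes tested. Among co-receptors and binding proteins, *Ncam1*, an adhesion molecule that can engage FGF receptors, had 4.45, 5.70 and 4.17 FPKM in WT and 9.35, 7.86 and 7.39 in HrasG12V mice. Its log2 fold change was 0.77 ± 0.18 (limma adjusted p = 0.355). *Hspg2*, which encodes perlecan, a heparan sulfate proteoglycan of basement membranes, was lower at -0.45 ± 0.18, and *Sdc1*, the proteoglycan syndecan 1, had -0.48 ± 0.36.

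**Figure D4:**
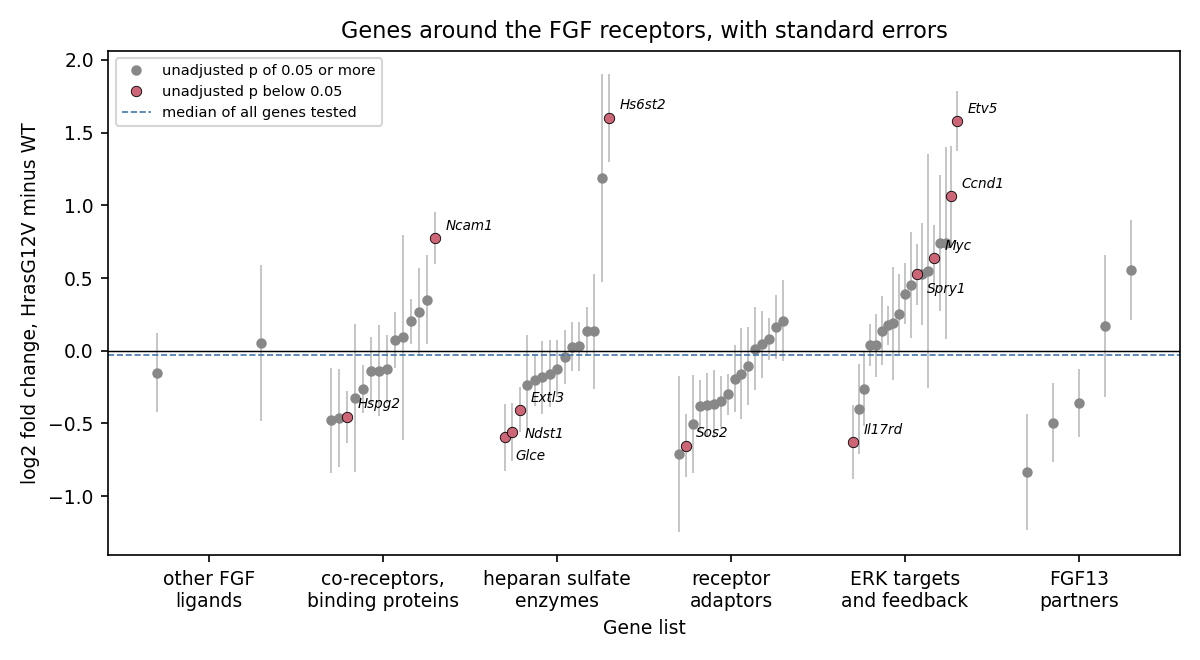
Log2 fold change of HrasG12V against WT with its standard error for each of the 71 tested genes of the 6 lists, sorted within a list, with unadjusted limma p below 0.05 in red. *Hs6st2* and *Etv5* lie highest at 1.60 and 1.58, and the ERK targets lie mostly above 0.

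*Etv5*, *Hs6st2* and *Ncam1* kept an unadjusted limma p below 0.05 when any mouse was left out. The other 9 all lost it without WT mouse 2277, with unadjusted limma p of 0.0565 for *Ccnd1* to 0.115 for *Il17rd*, and each lost it without at least 2 further mice. The highest such p was 0.148, for *Glce* without WT mouse 2280. *Etv5*, *Hs6st2*, *Ncam1* and *Sos2* are also on the study's own lists from these libraries, so their direction is not independent evidence. Satellite cell markers, which *Ncam1* can accompany, had a median of 0.40 on the log2 scale, 3 of the 8 being counted higher, and Schwann cell markers, another source of *Ncam1*, summed to 82.5 to 253 FPKM in WT and 121 to 431 in HrasG12V mice. Their part in *Ncam1* was not tested. Endothelial markers summed to 193 to 233 against 170 to 177 FPKM beside the *Hspg2* difference, where their part was not tested either.

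*Fgfbp1*, which encodes a secreted protein that frees FGFs from heparan sulfate, was below the filter and was named after its values were seen. It had 1.10, 0.723 and 0.965 FPKM in the WT mice. HrasG12V mice 2276 and 2278 had 0.0659 and 0.0555 FPKM, and mouse 2279 was listed at 0, which may be a failed estimate. A fit with no filter over 19388 genes gave a log2 fold change of -2.89 ± 0.29 (limma adjusted p = 0.0952), a value that depends on the 0.1 added. Keratinocyte markers summed to 3.08 to 11.5 FPKM in WT and 6.33 to 7.36 in HrasG12V mice, of which *Trp63* alone gave 1.98 to 3.51 and 5.17 to 6.57. The other 5 markers summed to 1.17, 8.03 and 1.10 in WT and 1.31, 1.16 and 0.782 in HrasG12V mice, high in WT mouse 2280 alone. That mouse had the lowest *Fgfbp1* of the WT group, and the part of these cells was not tested.

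**Figure D5:**
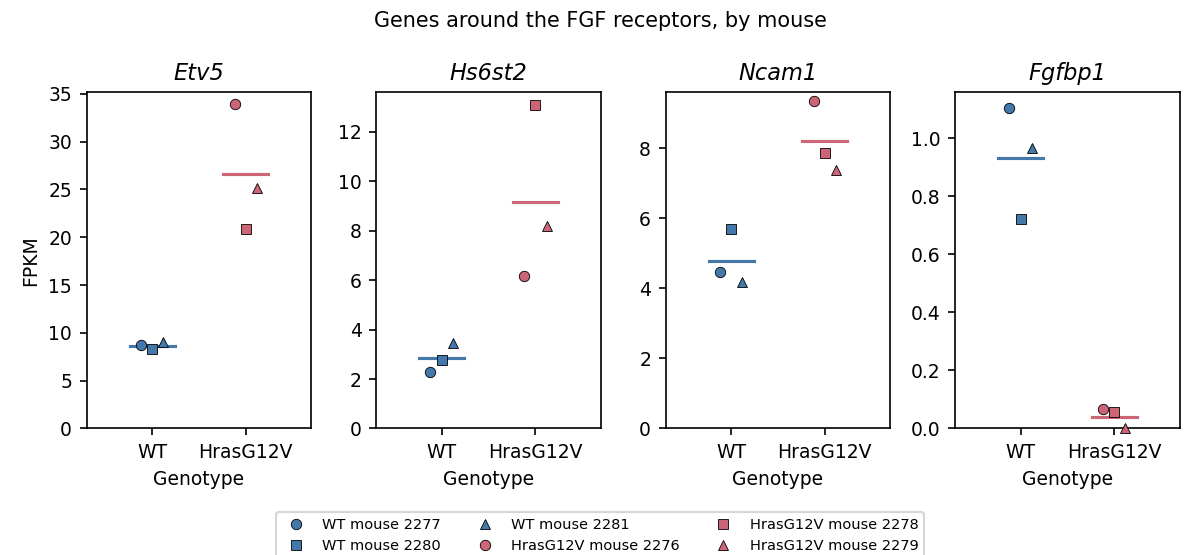
FPKM of *Etv5*, *Hs6st2*, *Ncam1* and *Fgfbp1* in each mouse, with bars at the group means and 1 vertical scale per gene. The HrasG12V mice lie above WT for the first 3 genes and at 0.0659 FPKM or less for *Fgfbp1*.

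Of 17 further FGF ligand genes only *Fgf11* and *Fgf18* had a mean of at least 0.5 FPKM, with log2 fold changes of -0.15 ± 0.27 and 0.055 ± 0.54, and *Fgf15* was listed at 0 in all 6 mice. *Fgf11* encodes another intracellular FGF homologous factor. It had 6.56, 6.35 and 7.81 FPKM in WT and 9.30, 5.49 and 4.62 in HrasG12V mice, with groups that overlapped, unlike *Fgf13*. Among partners of FGF13, 5 of 12 were tested and 0 were counted higher or lower, with a median of -0.36. *Scn4a*, the sodium channel of muscle fibers, had 107, 86.9 and 111 FPKM in WT and 76.3, 65.4 and 97.7 in HrasG12V mice, a log2 fold change of -0.36 ± 0.23. The channel subunits *Scn2b* and *Scn3b* had -0.83 ± 0.40 and 0.55 ± 0.34, with -1.14 to -0.52 and 0.25 to 0.85 when each mouse was left out.

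The genes whose log2 values followed a member most closely over the 6 libraries were sought among 12177 genes with a mean of at least 1 FPKM. With 6 points that share 2 genotypes and their library scaling, these correlations are a description. For *Fgf13* they were *Fam210a*, *Bbs7* and *Sox7* (Pearson r of 0.995, 0.994 and 0.988), and 69 genes reached 0.95. For *Fgfr3* they were *Herc1*, *Lmbrd1* and *Phkb* (0.997, 0.995 and 0.994), with 109 genes at 0.95 or more. *Fgfr4* was followed by the small RNA genes *Mir1a-1*, *Mir1894* and *Snord123* (0.994, 0.993 and 0.993). *Fgf6* had no gene at 0.95, the closest being *Zc3h12a*, *Vps37b* and *Gfra1* (0.946, 0.944 and 0.929).

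Overlapping genes limit several members. *Fgf2*, at chromosome 3 from 37348477 to 37410106, shares 5125 bases with *Nudt6*, which had 11.9, 10.4 and 11.2 FPKM in WT and 19.5, 7.36 and 8.17 in HrasG12V mice. *Nudt6* was highest in mouse 2276, where *Fgf2* was lowest. *Fgf1* lies within the span of *Arhgap26*, which had 0.790 to 3.58 FPKM, and *Fgf7* overlaps *Fam227b*, which had at most 0.0279 FPKM. Within the long span of *Fgf13* RefSeq places *Mir504*, listed at 0 in all 6 mice, and 4 predicted genes that were not among the listed symbols, and *Fgfr1* overlaps 2 such predicted genes. The library kit keeps strand, but whether the counting used it is not given in the sources used here, so reads of overlapping genes may not be separated.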

How the data were processed

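RNA of 6 gastrocnemius muscles was sequenced from 1 end of the fragments after preparation with a kit that keeps strand. Per the submitters' processing notes the tools were bcl2fastq, TopHat, Cufflinks and Cuffnorm and the builds GRCm38 and mm10. Their versions and the annotation: not given in the sources used here. The authors deposited FPKM per gene symbol, scaled between libraries by Cuffnorm. The methods state a nominal depth, but the read count of each library is not used here, and low values showed no steps of whole reads (the fullest interval of ratios between libraries held 0.893% to 6.32% of low genes). Precision comes from the spread between mice alone.

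The members, gene lists and tests were chosen with earlier results of these data known. Of 23997 symbols, 4609 were listed at 0 in all libraries. From the FPKM, log2(FPKM + 0.1) was computed for 13359 genes with a mean of at least 0.5, and a fit of genotype was made in R 4.3.3 by limma 3.58.1 (moderated spread with a trend, no covariate) and Benjamini-Hochberg adjustment over all genes tested. The limit was 0.05. Neighboring levels, in the order of the WT means of the same data, were compared by an exact sign-flip permutation test over 6 mice. The comparison was tested on simulated data. P-values cover the spread between these mice only.

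Genes named are the members, *Hras*, the highest and lowest log2 fold change of each pathway list, list genes with an unadjusted p below 0.05 and no overlap, and the 3 genes most like *Fgf13*, *Fgfr3*, *Fgf6* and *Fgfr4*. *Frs2*, *Scn4a*, *Fgfbp1*, the ERK targets named without being counted higher or lower, the overlapping genes and the cell markers named singly were chosen after their values were seen. Promoter sequences and positions are RefSeq, GRCm38.p6. Alternatives were pseudocounts of 1 and 0.01, a filter at 1 FPKM or none, quantile normalization, median centring, equal FPKM totals, array weights, no moderation and leaving out each mouse. Leaving out both libraries with lymphocyte transcripts was added after the data were seen. Tables were made with pandas 2.3.3 and numpy 2.4.6 and figures with matplotlib 3.10.9, under Python 3.11.15. No column of fold changes was used.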

Additional observations from a re-analysis of the deposited data

How the results depend on the processing

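Of 13359 genes, 1358 had an unadjusted limma p below 0.05, with 2 of the FGF members and 12 of the pathway genes among them. These counts were 712, 0 and 5 with libraries rescaled to the same total FPKM, and with array weights the count over all genes was 3042. With the same total FPKM the log2 fold changes of *Fgf13* and *Fgfr3* were -0.62 and -0.79, about as before, while their standard errors were 0.30 and 0.44 in place of 0.15 and 0.23. Leaving out 1 mouse gave 606 to 3979 genes, 1 to 3 members and 3 to 20 pathway genes. All 3 counts were highest without HrasG12V mouse 2276, for members jointly with mouse 2278, and *Fgfr3* lost its unadjusted p below 0.05 without WT mouse 2277 or 2281. Without both HrasG12V libraries with lymphocyte transcripts the counts were 6312, 5 and 34, with mouse 2276 assumed to vary like WT. An adjusted p below 0.05 was found for 8 genes, for 572 with array weights, for 1291 without mouse 2276, for 1 without moderation, for 14 without WT mouse 2281, for 4200 without both libraries and for 5 with a pseudocount of 1. Among members this held for *Fgf13* without mouse 2276 and for *Fgf2*, *Fgfr3*, *Fgfr4* and *Fgfrl1* without both libraries. Among pathway genes it held for *Etv5* with quantile normalization, for *Etv5* and *Hs6st2* with array weights, for these and *Myc* without mouse 2276, and for 20 of 71 without both libraries. It held for no member or pathway gene in the other fits. Without both libraries 11 of the 19 ERK targets were above 0. No rescaling moved the median of all genes by over 0.1 on the log2 scale.

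Direction changed in at least 1 alternative for 4 of the 9 members tested and for 35 of the 71 pathway genes tested, none of them among the 2 and 12 with an unadjusted p below 0.05. *Fgf2* (-0.27) was at 0.12 with array weights and 0.20 without mouse 2276. *Fgfr1* (0.017) was at -0.052 with array weights, -0.018 without mouse 2276 and -0.099 without mouse 2279. *Fgf1* and *Fgf7* (-0.31 and 0.31) were at 0.39 and -0.088 without both libraries. Among the pathway genes named for their place in a list, 3 turned. *Fgf11* (-0.15) was at -0.44 to 0.056 when a mouse was left out and at 0.43 without both libraries. *Fgf18* (0.055) was at -0.16 with quantile normalization, -0.19 with array weights and -0.44 to 0.56 when a mouse was left out. *Shb* (0.21) was at -0.026 to 0.37 when a mouse was left out. The cause of these changes was not tested. *Fgf13* was between -0.68 and -0.52 in every fit without 1 mouse. *Fgfr2* and *Fgfbp1* were fitted only without the filter. No analysis paired by litter was possible because the litter of each mouse is not in the labels. With 3 mice a group and no read counts per library, the precision of values near 0.1 FPKM is not known.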
